A study of Mus musculus with 3 samples.

Results

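Globins and 2 further red blood cell genes were read in RNA-seq libraries of cells sorted from the forming digits of mouse embryos. The set held 10 genes of the 23284 listed: the alpha-like globins Hba-x, Hba-a1 and Hba-a2, the beta-like globins Hbb-y, Hbb-bh1, Hbb-b1, Hbb-b2 and Beta-s, the haem synthesis enzyme gene Alas2 and the anion exchanger gene Slc4a1. They were chosen by name, with earlier results of these data known, and all 10 were listed in every library. The near-identical copies Hba-a1 and Hba-a2, and likewise Hbb-b1, Hbb-b2 and Beta-s, were also summed. There were 3 libraries, 1 per group, from mice with the background C57/bl6. The Sox9+ library came from GFP-positive digit cells at embryonic day E13.5 of Sox9-eGFP/+ mice. The Lgr5+ library came from GFP-positive cells of the forelimb digits of E14.5 embryos of Lgr5-eGFPCreERT2/+ mice, which the labels call interzone. The Lgr5- library held GFP-negative cells from E14.5 forelimb digits of that line, called non-interzone. In each line GFP reports the activity of the named gene, so the gates split cells by that reporter and not by position or by blood origin. How many embryos each library pools is not given in the sources used here. Because it is the only E13.5 sample, the Sox9+ library differs from both others in day, mouse line and gate at once, and these cannot be told apart. Its sample description names digits without the limb, so the limb may differ as well.

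Haemoglobin is a tetramer of 2 alpha-like and 2 beta-like chains, each holding a haem. In the mouse embryo the first red cells form in the yolk sac and enter the blood as primitive erythroid cells, which carry the embryonic chains encoded by Hba-x (zeta), Hbb-y (epsilon-y) and Hbb-bh1 (beta-h1) and also adult alpha chains. Definitive red cells made in the fetal liver carry adult alpha and beta chains and replace them in the blood over mid-gestation, and Hbb-bh1 RNA is lost from the primitive cells earlier than Hbb-y RNA. Cartilage itself is free of vessels, while the tissue around it is perfused.

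Values are FPKM, fragments per kilobase of transcript, scaled to the mapped fragments of the library, so levels of different genes are given per length. Folds are ratios of FPKM + 1, a scale on which low genes differ by less than their FPKM do. A gene counted as measured at 1 FPKM or more in the higher library of a pair, and as different at 2-fold or more. No group had a replicate, so the values carry no error and no test was possible. What is compared is a pair of libraries, which need not stand for their conditions. The depth is unknown, since the files hold no counts. The summed FPKM lay between 534025 and 593871, and between 11924 and 12002 genes stood at 1 FPKM or more. The digit cell genes Sox9, Col2a1, Acan, Gdf5, Lgr5, Prrx1 and Hoxd13 were all above 1 FPKM in every library, with Sox9 at 254.7 FPKM in Sox9+ cells, 332 FPKM in Lgr5+ cells and 147.1 FPKM in Lgr5- cells. In bulk libraries such as these, fewer red cells and less globin RNA per red cell cannot be told apart.

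The promoters of the members that were high together in Lgr5- cells are shown first, as the 120 bases upstream of the RefSeq start of each gene (GRCm38.p6, read 5′ to 3′ on the gene's own strand). The promoter table gave an entry for 5 members by their own symbol, and for Beta-s through Hbb-bs, of which RefSeq lists it as an older name. Capitals mark CACCC, the core of sites bound by erythroid Krüppel-like factor, the CCAAT box, GATAA, the core of GATA factor sites, and the TATA box, which reads TATAA in most of them and, in Hbb-y, CATAAA, searched on both strands. The last 3 forms share the letters ATAA but no whole match. These are textbook elements of globin promoters, and the choice was made after the data had been seen.
Hba-x, embryonic alpha-like, chr11:32276480-32276599, plus strand: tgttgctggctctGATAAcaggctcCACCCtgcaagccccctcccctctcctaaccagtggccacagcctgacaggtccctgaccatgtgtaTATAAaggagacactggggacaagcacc
Hba-a1, adult alpha, chr11:32283552-32283671, plus strand: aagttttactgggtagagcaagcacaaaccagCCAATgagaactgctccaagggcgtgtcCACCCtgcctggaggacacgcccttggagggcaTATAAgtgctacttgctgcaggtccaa
Hbb-y, embryonic beta-like, chr7:103853208-103853327, minus strand: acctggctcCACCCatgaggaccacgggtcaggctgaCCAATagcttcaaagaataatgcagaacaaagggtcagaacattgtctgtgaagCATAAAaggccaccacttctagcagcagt
Beta-s (Hbb-bs), adult beta, chr7:103827929-103828048, minus strand: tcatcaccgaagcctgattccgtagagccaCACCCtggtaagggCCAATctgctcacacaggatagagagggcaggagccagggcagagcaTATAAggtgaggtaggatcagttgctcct
Alas2, haem synthesis, chrX:150547297-150547416, plus strand: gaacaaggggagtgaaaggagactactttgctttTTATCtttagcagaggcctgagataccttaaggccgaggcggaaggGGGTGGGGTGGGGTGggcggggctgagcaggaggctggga

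CACCC stood in all 6 promoters read, Hba-a2 included, against 31.7% of the 32851 promoters in the table over the same 120 bases. In Alas2 it appeared 3 times, each on the reverse strand as GGGTG. The CCAAT box stood in 4 of the 6, against 21.3% of all promoters, and was not in these windows of Hba-x and Alas2. GATAA stood in Hba-x and Alas2, against 10.5% of all promoters. One of the TATA box forms stood in 5 of the 6, against 16.0% of all, and began between 27 and 30 bases upstream of the start. The combination of a CACCC core with a CCAAT box and a TATA box form was found in 4 member promoters and in 0.877% of all promoters. Hba-a1 and Hba-a2, whose windows are near copies of each other, count separately in this and the other counts of member promoters. A match is a run of letters and not a measured site.

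Over much of their length the copies cannot be told apart by short reads. Hba-a1 and Hba-a2 differed at 1 of 429 coding bases. Of all 50-base stretches, 86.9% of those of the Hba-a2 transcript also lay in the Hba-a1 transcript, and 67.5% the other way. Their promoter windows shared a run of 297 of 300 bases, so that of Hba-a2 is not printed. In the beta cluster of the reference genome, Hbb-bs and its neighbour Hbb-bt differed at 1 of 444 coding bases. Of their 50-base stretches, 65.8% of those of Hbb-bs and 58.3% of those of Hbb-bt were shared. Mouse strains carry different pairs of adult beta genes: C57/bl6 mice carry Hbb-bs and Hbb-bt, while Hbb-b1 and Hbb-b2 name the pair of another haplotype. The files list Hbb-b1 and Hbb-b2 with Beta-s, and RefSeq numbers those 2 on another sequence than the reference chromosome, so no coordinates are given for them. How fragments were shared among these 3 rows is not stated in the labels. Their sum is the firmer value if each fragment was counted once. Had fragments been counted in more than 1 of these rows, the adult beta sum would be too high. The sequences of Hbb-b1 and Hbb-b2 were not compared here. The embryonic genes were far enough apart to be read separately. Hbb-y matched Hbb-bs at 74.3% and Hbb-bh1 at 76.4% of coding bases, Hba-x matched Hba-a1 at 62.0%, and none of these pairs shared a 50-base stretch.

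Adult globin RNA was by far most abundant in Lgr5- cells, in both chains. The summed adult alpha genes Hba-a1 and Hba-a2 (chromosome 11, 32283672 to 32284486 and 32296492 to 32297310, plus strand, both protein-coding) stood at 48.3 FPKM in Sox9+ cells, 66.8 FPKM in Lgr5+ cells and 2305 FPKM in Lgr5- cells. The sum was 34.0-fold higher in Lgr5- than in Lgr5+ cells and 46.8-fold higher than in Sox9+ cells. The summed adult beta genes Hbb-b1, Hbb-b2 and Beta-s (Hbb-bs at chromosome 7, 103826523 to 103827928, minus strand, protein-coding) stood at 53.1, 78.4 and 2943 FPKM in that order of libraries. That sum was 37.1-fold higher in Lgr5- than in Lgr5+ cells and 54.4-fold higher than in Sox9+ cells. Both adult chains therefore had the same order of libraries, with the Lgr5- library highest and the Sox9+ library lowest.

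**Figure D1:**
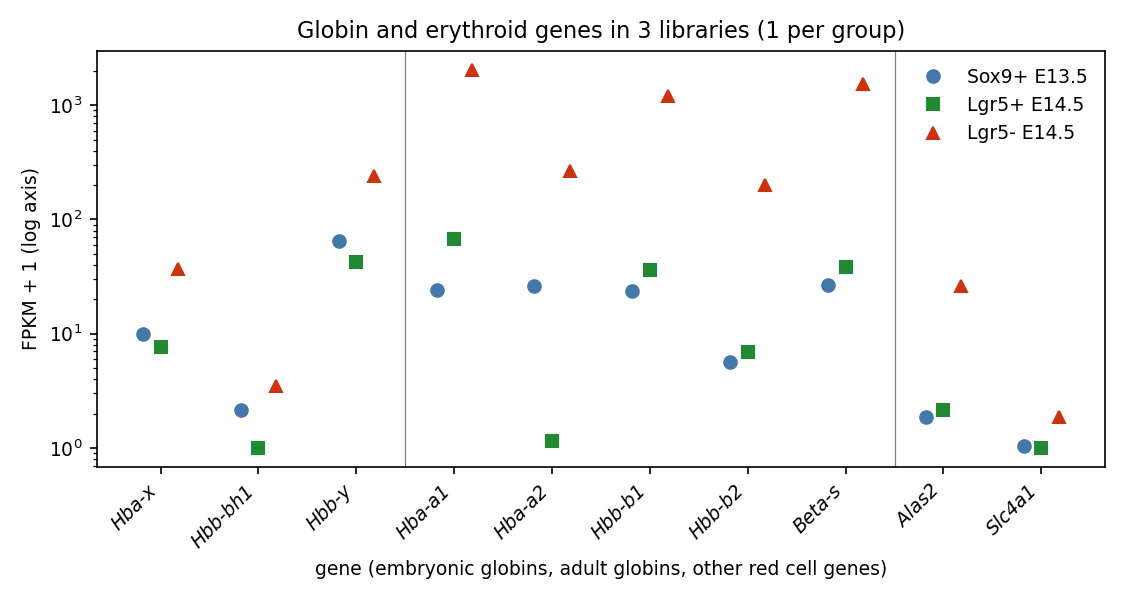
FPKM + 1 on a log axis for the 10 genes, with 1 point per library (blue circles Sox9+, green squares Lgr5+, red triangles Lgr5-); embryonic globins stand left, adult globins in the middle, Alas2 and Slc4a1 right. The Lgr5- points are the highest for all 10 genes, reaching 2043 FPKM for Hba-a1, while Hba-a2 in Lgr5+ cells lies far under Hba-a1.

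The single adult rows differed in how far their copies could be followed. Hba-a1 stood at 23.0 FPKM in Sox9+ cells, 66.6 FPKM in Lgr5+ cells and 2043 FPKM in Lgr5- cells, where it was the 27th highest of all genes. Hba-a2 stood at 25.3, 0.16 and 262.1 FPKM. Its part in the adult alpha sum was thus 52.3% in Sox9+ cells, 0.240% in Lgr5+ cells and 11.4% in Lgr5- cells. The 226.8-fold difference of Hba-a2 between the Lgr5- and Lgr5+ libraries, the highest of any member, rests on that 0.16 FPKM, whereas the adult alpha sum gave 34.0-fold. The beta rows kept nearly fixed parts of their sum. Hbb-b1 stood at 22.8, 35.4 and 1207 FPKM in the Sox9+, Lgr5+ and Lgr5- libraries and made up 41.0% to 45.1% of the adult beta sum. Beta-s stood at 25.7, 37.1 and 1537 FPKM and made up 47.3% to 52.2%. Hbb-b2 was the lowest of these rows, at 4.61, 5.89 and 199.0 FPKM, or 6.76% to 8.68%. The differences between the Lgr5- and Lgr5+ libraries were 33.2-fold for Hbb-b1, 40.4-fold for Beta-s and 29.02-fold for Hbb-b2.

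Embryonic globin RNA was also highest in Lgr5- cells, but by a much smaller factor. Hbb-y (chromosome 7, 103851754 to 103853207, minus strand), the main embryonic beta-like chain at these stages, stood at 63.5 FPKM in Sox9+ cells, 41.1 FPKM in Lgr5+ cells and 237.2 FPKM in Lgr5- cells. It was 5.66-fold higher in Lgr5- than in Lgr5+ cells and 3.69-fold higher than in Sox9+ cells. Hba-x (chromosome 11, 32276600 to 32278116, plus strand), the embryonic alpha-like chain, stood at 9.04, 6.65 and 35.5 FPKM. Its differences were 4.77-fold and 3.64-fold, close to those of Hbb-y. Hbb-bh1 (chromosome 7, 103841638 to 103843162, minus strand), the earliest embryonic beta-like chain, was near the lower limit throughout, at 1.14 FPKM in Sox9+ cells, listed at 0 in Lgr5+ cells and 2.5 FPKM in Lgr5- cells. Hbb-y exceeded it by a ratio of 55.7 in Sox9+ cells and 94.9 in Lgr5- cells. In contrast to the summed adult genes, though not to the single row of Hba-a2, the embryonic genes were higher in the Sox9+ than in Lgr5+ cells. That difference was 1.53-fold for Hbb-y and 1.31-fold for Hba-x, both under 2-fold, and its direction held under every scaling tried.

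**Figure D2:**
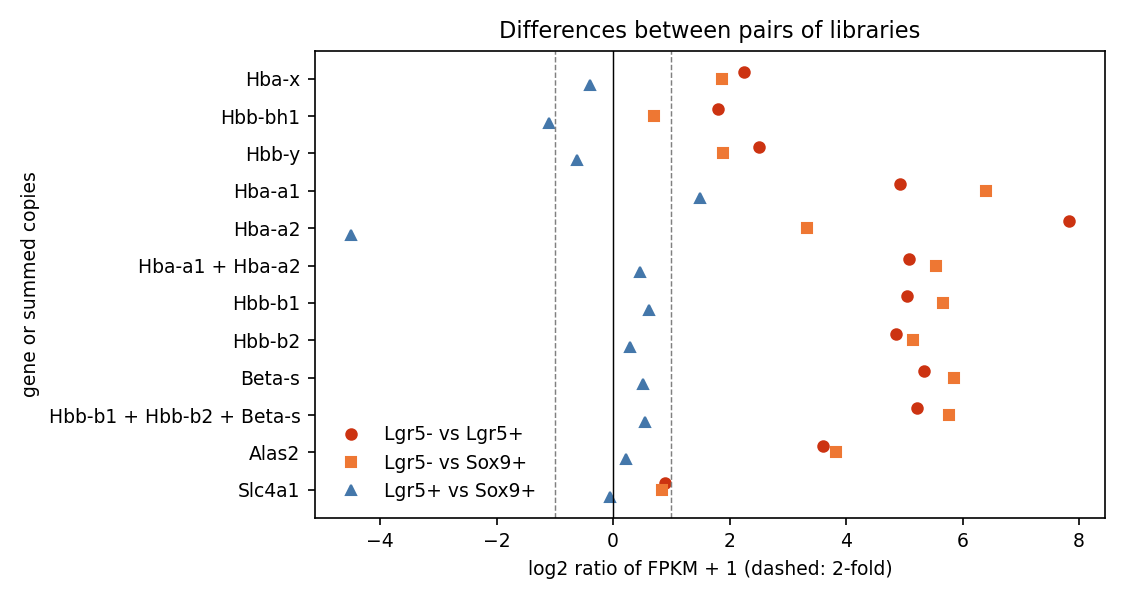
Log2 ratio of FPKM + 1 (x axis) for each gene and for the summed copies (y axis) in the 3 pairs of libraries, with dashed lines at 2-fold. Adult sums lie above 5 for Lgr5- against either other library and embryonic genes below 3, and the blue triangles of Lgr5+ against Sox9+ pass a dashed line only for Hba-a1, Hba-a2 (whose sum lies at 0.46) and Hbb-bh1; the latter is listed at 0 in Lgr5+ cells, so its point against that library depends on the added 1.

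The mix of chains within each library, which no library-wide scaling factor can change, therefore differed. Of the beta-like globin FPKM, embryonic genes made up 54.9% in Sox9+ cells, 34.4% in Lgr5+ cells and 7.53% in Lgr5- cells. Of the alpha-like globin FPKM, Hba-x made up 15.8%, 9.05% and 1.52% in the same order. Both clusters gave the same order of libraries, with the embryonic part highest at E13.5. Between the 2 libraries of E14.5, it was lower in the one with more globin RNA. The uncertain rows moved some of these parts by over 1.5 times and left the order in place. Without Beta-s the beta-like part was 14.6% in Lgr5- cells, and without Hba-a2 the alpha-like part was 28.2% in Sox9+ cells. No replicate shows how far such parts vary between libraries of 1 kind.

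**Figure D3:**
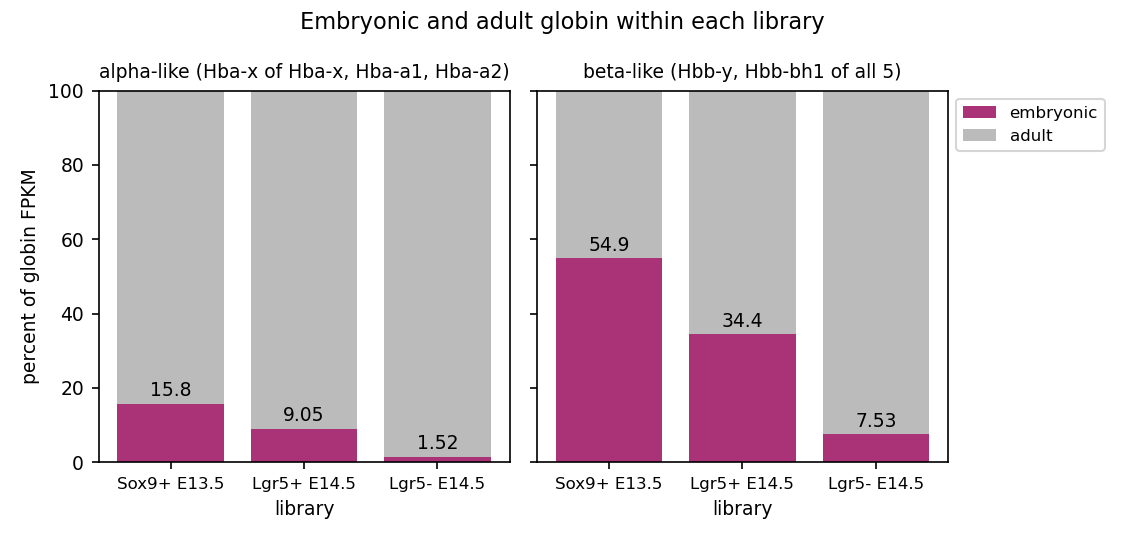
Percent of globin FPKM (y axis) from embryonic (purple) and adult (grey) genes in each library, for alpha-like genes on the left and beta-like genes on the right. The embryonic part is highest in Sox9+ cells, at 15.8% and 54.9%, and lowest in Lgr5- cells, at 1.52% and 7.53%.

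Of the globin FPKM that the Lgr5- library held beyond the Lgr5+ library, almost all was adult. The excess was 2864 FPKM of adult and 198.6 FPKM of embryonic beta-like RNA, so that embryonic genes made up 6.48% of it. For alpha-like RNA it was 2239 FPKM adult and 28.9 FPKM embryonic, or 1.27%. Against the Sox9+ library the embryonic parts of the excess were 5.71% and 1.16%. Globin RNA as a whole made up 1.01% of the summed FPKM in Lgr5- cells, 0.0361% in Lgr5+ cells and 0.0295% in Sox9+ cells. The near-equal totals of the 2 low libraries, at 192.9 and 175.1 FPKM, were made of different chains. Adult globins stood at 145.2 FPKM in the Lgr5+ and 101.4 FPKM in Sox9+ cells, while embryonic globins stood at 47.8 and 73.7 FPKM.

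The balance of beta-like to alpha-like RNA was 2.05 in Sox9+ cells, 1.63 in Lgr5+ cells and 1.36 in Lgr5- cells. Which chain exceeded depended on how it was counted. Weighted by transcript length, without Hbb-b1 and Hbb-b2, the ratio was 0.948 in Lgr5+ cells and 0.697 in Lgr5- cells, and without Hba-a2 and Beta-s it was 0.792 in Lgr5- cells. The order of libraries also turned with the genes counted. Among adult genes alone the ratio was 1.10, 1.17 and 1.28. Among embryonic genes alone it was 7.15, 6.18 and 6.75, so that embryonic beta-like RNA exceeded embryonic alpha-like RNA in every library by several times.

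Along each cluster the embryonic genes lie first in the direction of transcription and the adult genes after them. In the alpha cluster, Hba-a1 starts 7.07 kb and Hba-a2 19.9 kb after Hba-x. In the beta cluster, Hbb-bh1 starts 10.0 kb and Beta-s 25.3 kb after Hbb-y. On the log2 scale, the difference between the Lgr5- and Lgr5+ libraries was 2.25 for Hba-x and 4.92 for Hba-a1, and 2.50 for Hbb-y and 5.34 for Beta-s. For Hba-a2 it was 7.83, which rests on 0.16 FPKM in Lgr5+ cells. The adult sums of both chromosomes differed by nearly the same amount, 5.09 for alpha and 5.21 for beta, and so did Hba-x and Hbb-y.

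**Figure D4:**
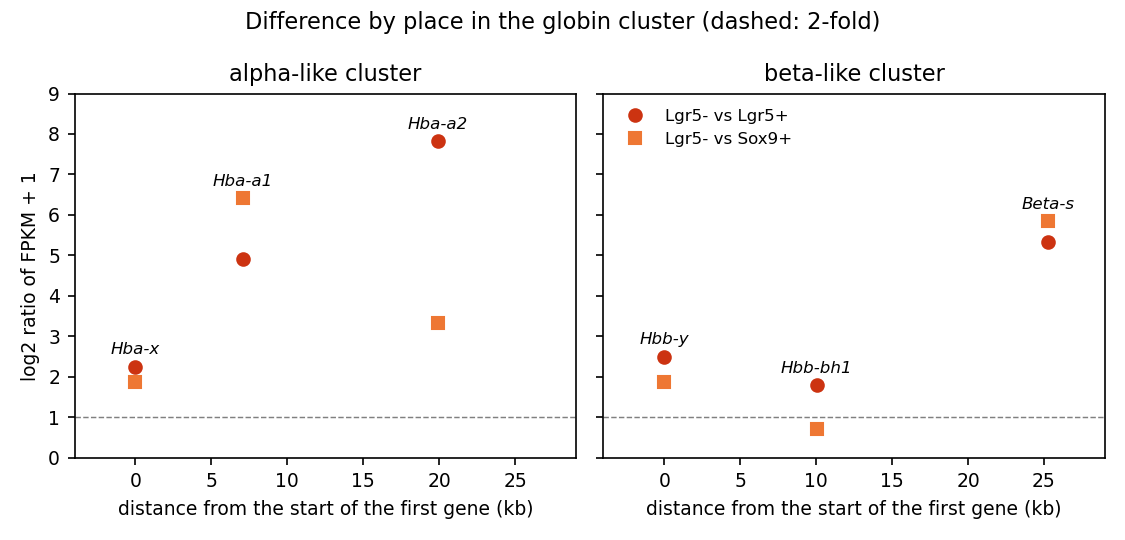
Log2 ratio of FPKM + 1 (y axis) against the distance in kb of each gene's start from that of the first gene of its cluster (x axis), for Lgr5- against Lgr5+ (red circles) and against Sox9+ (orange squares). Adult genes, placed further along, lie above the embryonic genes in both clusters; the dashed line marks 2-fold, which Hbb-bh1 against Sox9+ does not reach, at 0.71.

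The other 2 members showed the same library as highest. Alas2, which encodes the erythroid form of the first enzyme of haem synthesis (chromosome X, 150547417 to 150570622, plus strand, protein-coding), stood at 0.86 FPKM in Sox9+ cells, 1.16 FPKM in Lgr5+ cells and 25.4 FPKM in Lgr5- cells. It was 12.2-fold higher in Lgr5- than in Lgr5+ cells and 14.2-fold higher than in Sox9+ cells. For each 1000 FPKM of globin there were 4.60 FPKM of Alas2 in Lgr5- cells, 6.01 FPKM in Lgr5+ cells and 4.91 FPKM in Sox9+ cells. For each 1000 FPKM of adult globin alone the values were 4.84, 7.99 and 8.48 FPKM, so the proportion was closer between libraries for all globin than for adult globin. Of these Alas2 values, 2 of 3 are near 1 FPKM. Slc4a1, which encodes the anion exchanger band 3 of the red cell membrane (chromosome 11, 102348820 to 102365281, minus strand, protein-coding), stood at 0.05, 0.01 and 0.88 FPKM. It did not reach 1 FPKM in any library and so did not count as measured.

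Counted as rows, 9 of the 10 members were measured between the Lgr5- and Lgr5+ libraries, and all 9 were at least 2-fold higher in Lgr5- cells, against 1.89% of the 12438 genes measured. The call of Hbb-bh1 rests on its being listed at 0 in Lgr5+ cells. Between the Lgr5- and Sox9+ libraries 8 of 9 were at least 2-fold higher, against 3.08% of 12482 genes, and Hbb-bh1 lay within 2-fold. Both counts share the Lgr5- library, so the second is no separate evidence. Between the Lgr5+ and Sox9+ libraries 6 of 9 lay within 2-fold. Hba-a1 was 2.81-fold higher in Lgr5+ cells (4.33% of 12492 genes were at least 2-fold higher), and Hba-a2 and Hbb-bh1 were lower (3.96% were at least 2-fold lower). With copies summed, none was higher and 1 of 6 was lower there, Hbb-bh1, which is listed at 0 in Lgr5+ cells. The median log2 ratio of the measured members was 4.86, 3.83 and 0.22 in these pairs, against -0.08, -0.01 and 0.06 over all measured genes. In that count the members are not separate measurements, since copies share reads and all come from the same libraries. The set was also chosen with earlier results known, so the shares over all genes give a scale and no test.

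Most other measured genes on the red cell lists lay within 2-fold where the globins differed. Those measured include genes that other cells also make, such as Prdx2 and Ldb1. Red cell genes such as Rhag, Kel and Hemgn fell under the 1 FPKM minimum, so the counts below need not describe red cells. Of 66 further genes of haem synthesis, the red cell membrane, erythroid transcription, receptors and iron uptake, and maturation, 43 were measured between the Lgr5- and Lgr5+ libraries, and 36 of them lay within 2-fold. In Lgr5- cells 3 were at least 2-fold higher, against 1.89% of all measured genes, and 4 were at least 2-fold lower, against 3.64%. Their median log2 ratio was 0.01. Against the Sox9+ library, 4 of 41 were higher in Lgr5- cells (3.08% of all measured genes were higher) and 1 was lower (4.94% of all measured genes were lower). Between the Lgr5+ and Sox9+ libraries, 3 of 41 were higher and 1 lower, against 4.33% and 3.96% of all measured genes.

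By role, the 12 haem synthesis genes other than Alas2 all lay within 2-fold in every pair. They included Alas1, the form of the first enzyme found in all tissues, at 10.7 FPKM in Sox9+ cells, 12.5 FPKM in Lgr5+ cells and 11.7 FPKM in Lgr5- cells. The last enzyme, encoded by Fech, stood at 6.77, 9.38 and 10.96 FPKM, and Tmem14c, a carrier of haem precursors in mitochondria and the highest of the list, at 85, 79.4 and 79.1 FPKM. Among 17 membrane genes other than Slc4a1, the spectrin gene Sptb and the water channel gene Aqp1, which is also made by other cell types, were lower in Lgr5- than in Lgr5+ cells, at 0.17 against 2.31 FPKM and 6.78 against 21.9 FPKM. The protein 4.1 gene Epb41 hardly differed, at 42.0, 39.7 and 44.7 FPKM.

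Among erythroid transcription factor genes, the red cell regulators Gata1, Klf1 and Tal1 were near or under 1 FPKM in all 3 libraries, while Ldb1, a cofactor made in many tissues, reached 81.2 FPKM. Gata1, the master regulator of red cell formation, stood at 0.03 FPKM in Sox9+ cells, 0.05 FPKM in Lgr5+ cells and 0.06 FPKM in Lgr5- cells. Klf1, which encodes erythroid Krüppel-like factor, stood at 0.62, 1.07 and 0.93 FPKM, and Tal1 at 0.13, 0.01 and 0.04 FPKM. Klf1 and Tal1 were not highest in Lgr5- cells. Bcl11a, a repressor of embryonic globin genes that is also made by other cell types, stood at 16.4, 24.8 and 39.1 FPKM and was 2.30-fold higher in Lgr5- than in Sox9+ cells. Sox6, which acts in red cells on embryonic globin genes and in cartilage with Sox9, was 3.31-fold lower in Lgr5- than in Lgr5+ cells, at 10.96 against 38.6 FPKM. Among receptors, the erythropoietin receptor gene Epor stood at 2.47, 2.64 and 1.75 FPKM and the transferrin receptor gene Tfrc at 8.94, 6.63 and 4.82 FPKM. Kit, the stem cell factor receptor of early blood, mast and pigment cells, was the 1 receptor at least 2-fold higher in Lgr5- cells, at 6.38 FPKM against 2.5 FPKM in the Lgr5+ and 2.35 FPKM in Sox9+ cells.

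Of the maturation genes and red cell enzymes, Car2 was 2.79-fold higher in Lgr5- than in Lgr5+ cells, at 6.55 against 1.71 FPKM, but stood at 5.02 FPKM in Sox9+ cells. Fbxo7 was 4.92-fold lower, at 12.4 against 64.9 FPKM. Prdx2, an abundant peroxidase of red cells that other cells also make, stood at 514.8 FPKM in Sox9+ cells, 746.4 FPKM in Lgr5+ cells and 731.2 FPKM in Lgr5- cells. Trim10, an erythroid gene, was listed at 0 in Sox9+ cells and stood at 0.06 FPKM in Lgr5+ cells and 1.08 FPKM in Lgr5- cells.

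Several further genes typical of red cells were listed above 0 in the Lgr5- library alone, at very low levels. Of 11 further erythroid genes listed at 0 in both the Sox9+ and the Lgr5+ library, 10 were above 0 in Lgr5- cells, against 7.93% of the 5777 genes of the whole table that were at 0 in both. Among them were Epb42 at 0.15 FPKM, Rhag at 0.06 FPKM, Kel at 0.38 FPKM, Gfi1b at 0.21 FPKM, Hemgn at 0.07 FPKM and Car1 at 0.13 FPKM, with Trim58 and Alox15. No further erythroid gene was listed above 0 in Lgr5+ cells alone or in Sox9+ cells alone, where 1 gene each could have been. These genes encode membrane proteins, a transcriptional repressor and proteins of late red cell maturation. Values this low may rest on few fragments, and the depth behind them is unknown. The lists were chosen with earlier results of these data known, so the share over all genes is no test of them.

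**Figure D5:**
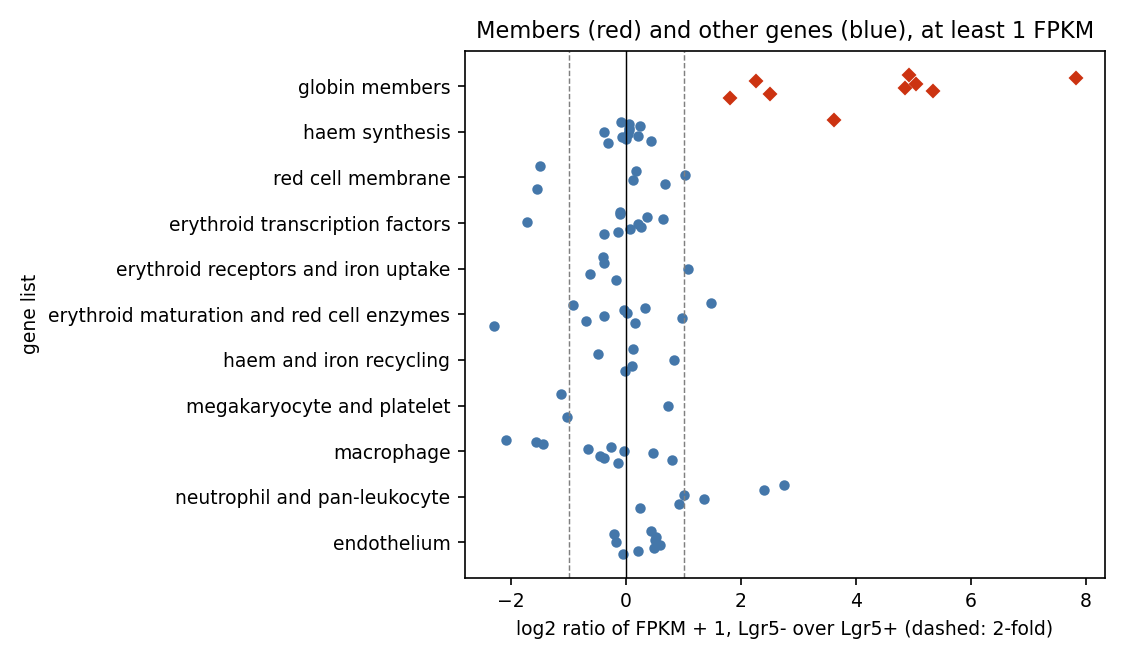
Log2 ratio of FPKM + 1, Lgr5- over Lgr5+ (x axis), for each gene of at least 1 FPKM in either library, by gene list (y axis), with members as red diamonds and other genes as blue points; dashed lines mark 2-fold. Members lie between 1.81 and 7.83, whereas 36 of 43 other erythroid genes lie between the dashed lines and 4 of 6 neutrophil and pan-leukocyte genes lie to the right of them.

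Markers of other blood and vessel cells moved with the globins in part. Of 8 neutrophil and pan-leukocyte genes, 6 were measured between the Lgr5- and Lgr5+ libraries and 4 (S100a8, S100a9, Cd52 and Mpo) were at least 2-fold higher in Lgr5- cells, none lower, against 1.89% and 3.64% of all measured genes. Mpo, the neutrophil peroxidase gene, stood at 0.12 FPKM in Sox9+ cells, was listed at 0 in Lgr5+ cells and stood at 1.01 FPKM in Lgr5- cells. Their summed level was 10.3 FPKM in Sox9+ cells, 16.3 FPKM in Lgr5+ cells and 46.8 FPKM in Lgr5- cells. S100a8, a neutrophil protein gene, stood at 11.5 FPKM in Lgr5- cells, 0.86 FPKM in Lgr5+ cells and was listed at 0 in Sox9+ cells. S100a9, its partner, stood at 4.28 FPKM in Lgr5- cells and was listed at 0 in both others. Elane was listed at 0 in both others as well, and Cd52 and S100a8 in Sox9+ cells. The part of these cells in the globin difference was not tested.

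The summed macrophage and platelet genes were not highest in Lgr5- cells, while the summed endothelial genes had the same order of libraries as the adult globins. The 12 macrophage genes summed to 13.4 FPKM in Sox9+ cells, 97.1 FPKM in Lgr5+ cells and 57.1 FPKM in Lgr5- cells. Of 11 measured, 3 were at least 2-fold lower in Lgr5- than in Lgr5+ cells (3.64% of all measured genes were lower) and none higher. Against the Sox9+ library 5 of 8 measured were higher in Lgr5- cells and none lower (3.08% and 4.94% of all measured genes). Lyz2, at 1.08, 7.48 and 13.7 FPKM, and Fcgr3, at 0.35, 1.88 and 2.97 FPKM, were highest in Lgr5- cells, and the other macrophage genes in Lgr5+ cells. C1qb, a complement gene of macrophages, stood at 2.75, 32.5 and 10.3 FPKM, and Cd163, the haemoglobin scavenger receptor gene, was listed at 0 in the Sox9+ and Lgr5- libraries. The 8 megakaryocyte and platelet genes summed to 13.7, 14.9 and 11.3 FPKM, with Ppbp and Gp9 listed at 0 in Sox9+ cells. Pf4, a platelet chemokine gene, stood at 1.69, 8.57 and 3.34 FPKM. The 10 endothelial genes summed to 17.4, 23.2 and 29.9 FPKM, none listed at 0, and all 9 measured lay within 2-fold between the Lgr5- and Lgr5+ libraries. Their part in the globin difference was not tested. Pecam1, a vessel marker, stood at 0.72, 1.22 and 2.01 FPKM, and Cdh5, Tek, Emcn, Cldn5 and Tie1 had the same order. The order did not hold for the other genes of the list. Kdr, Esam and Eng were highest in Lgr5+ cells, at 1.64, 2.33 and 5.44 FPKM, and Egfl7 was lowest there, at 7.05 FPKM.

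Likeness to the globin pattern was measured as the smaller of the 2 log2 ratios of the Lgr5- library over the others, over 3 libraries and 12754 genes. Members, which were chosen with earlier results known, took 6 of the first 10 ranks. These were Beta-s, Hbb-b1, Hba-a1, Hbb-b2, Alas2 and Hba-a2, at ranks 3, 4, 5, 6, 9 and 10. Hbb-y and Hba-x stood at ranks 27 and 28 and Hbb-bh1 at rank 274. Of the 15 most alike genes outside the set, those named here had values between 7.30 and 2.13. The leading pair, the microRNA gene Mir24-2 and the predicted gene Gm12238, was listed at 0 in both other libraries and stood at 156.8 and 56.1 FPKM in Lgr5- cells. They were followed by the pseudogene Atp6v0c-ps2, Mir466i, S100a8, Foxf2, S100a9, Mir1192, Ifitm1, Snora47, Apcdd1 and Plac8. The mast cell genes Hdc, which encodes histidine decarboxylase, and Cpa3, a carboxypeptidase gene, stood at 7.31 and 15.6 FPKM in Lgr5- cells, against 0.71 and 2.79 FPKM in Lgr5+ cells. Short RNA genes are poorly measured by FPKM, since a few fragments over a short length give a high value.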

How the data were processed

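RNA was measured in 3 libraries, 1 per group. Per the labels' protocols and design text, dissociated digit cells were flow-sorted for GFP, and 10 ng of RNA per library went into SMARTer cDNA synthesis and Illumina HiSeq sequencing. The submitters' processing notes list HISAT2 and mm10 (GRCm38). Which quantifier and annotation were used, and how multiply mapped reads were treated, is not given in the sources used here. Tables as deposited give 1 FPKM value per gene symbol, as the authors computed it, with 2 decimals. Log2 ratios were computed from these with a pseudocount of 1, a minimum of 1 FPKM in the higher library and a 2-fold threshold (Python 3.11.15, pandas 2.3.3), and the calls were tested on simulated data. Single libraries allow neither a test nor a leave-one-out.

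Members and lists were chosen with earlier results of these data known. The rule for named genes took every member, the genes of each list at least 2-fold higher in Lgr5- than in Lgr5+ with up to 4 others of highest FPKM, and the 15 genes of most alike pattern. Other named genes (those at or near 0, those lower in Lgr5-, further regulators, receptors and enzymes) and the promoter motifs were chosen after their values were seen. Some genes that the counts include are not reported here by name. Older symbols were matched through RefSeq (Epb42 and Sptb are listed as Epb4.2 and Spnb1), and Ahsp had no match. Alternatives covered the pseudocount, the minimum, 5 scalings, summed copies and the genes counted in each mix of chains.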

Additional observations from a re-analysis of the deposited data

How the results depend on the processing

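The alternatives were pseudocounts of 0.1 and 10, no minimum or 10 FPKM, and 5 scalings. A pseudocount or a minimum cannot change the sign of a log2 ratio, so only the scalings could. Under all 5 scalings each member kept its sign in all 3 pairs. These scalings moved the median log2 ratio of all measured genes by -0.07 to 0.15, too little to turn the larger differences. The difference between Lgr5- and Lgr5+ ranged from 4.74 to 5.03 for Hba-a1, 5.04 to 5.45 for Beta-s, 2.27 to 2.65 for Hbb-y and 1.67 to 4.34 for Alas2. The range was widest for Hba-a2, at 4.74 to 9.98, whose value in Lgr5+ is 0.16 FPKM. Among genes near 1 FPKM, Hbb-bh1 fell under 2-fold with a pseudocount of 10, at 0.32, and Slc4a1 passed it with a pseudocount of 0.1, at 3.16, and after rescaling to TPM, at 1.36. With copies summed, 5 of the 6 measured entries stayed higher in Lgr5- than in Sox9+, where fewer entries were counted. Between Lgr5+ and Sox9+ the count of lower members was 1 with summed copies, with a pseudocount of 10 and with a minimum of 10 FPKM, and the count of higher members was 0 with summed copies. Weighting by GENCODE transcript length, which leaves out Hbb-b1 and Hbb-b2, gave embryonic parts of beta-like RNA of 52.8% in Lgr5+ and 13.6% in Lgr5- (71.7% in Sox9+), and beta-like to alpha-like ratios of 0.948 and 0.697. Without Beta-s the embryonic part in Lgr5- was 14.6%, and without Hba-a2 that of alpha-like RNA in Sox9+ was 28.2%. The beta-like to alpha-like ratio was 1.10 in Sox9+ with adult members only and 0.792 in Lgr5- without Hba-a2 and Beta-s. Under each of these, the embryonic part was highest in Sox9+ and lowest in Lgr5-. A value of a mix was taken as moved when it changed by over 1.5 times, since no replicate spread exists. No paired analysis was possible because each group has 1 library.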

Other observations

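Genes that handle haem and iron after red cells are broken down did not follow the globins. Of 7 such genes, 5 were measured between the Lgr5- and Lgr5+ libraries, and all 5 lay within 2-fold. Hmox1, the enzyme gene that breaks down haem and also responds to stress, stood at 32.1 FPKM in Sox9+ cells, 15.2 FPKM in Lgr5+ cells and 16.7 FPKM in Lgr5- cells. Slc48a1, a haem transporter gene, stood at 8.27, 18.1 and 17.8 FPKM, and Slc40a1, the iron exporter gene, at 5.36, 11.3 and 7.77 FPKM. Flvcr2, listed as Mfsd7c, was highest in Sox9+ cells, at 3.94 against 0.72 and 0.99 FPKM.

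Globins outside the blood clusters and the minor genes within them were low. Cygb, which encodes cytoglobin of fibroblast-like cells, stood at 0.96 FPKM in Sox9+ cells, 2.5 FPKM in Lgr5+ cells and 2.81 FPKM in Lgr5- cells. Mb, the muscle oxygen store myoglobin, stood at 0.13, 0.38 and 0.64 FPKM. The theta globin copies Hbq1a and Hbq1b reached 0.22 and 0.25 FPKM at most, and Hbb-bh2 was listed at 0 in every library.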
